A study of Mus musculus with 6 samples.

Results

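Carriers of the Slc25 family move metabolites, nucleotides and ions across the mitochondrial inner membrane, which is otherwise closed to them. In liver they carry citrate, malate, glutamate, phosphate, ADP and ATP, coenzyme A, NAD, glutathione and iron between the cytosol and the matrix, and so join glycolysis, lipid synthesis and the urea cycle to mitochondrial metabolism. The genes described here are the protein-coding genes of the deposited liver table whose symbol starts with Slc25a, other than *Slc25a13*, *Slc25a15* and *Slc25a20*. They number 40 of the 21297 genes in the table, on 19 chromosomes. The rule used only the symbol and the protein-coding type and no measured value, but was set with earlier results of these data known.

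Liver RNA was sequenced from 3 MMAB ASO and 3 CON ASO male C57BL/6J mice, wild type, on chow and 8 weeks of age at the first injection. The study's methods have mice fasted overnight ahead of in vivo work unless stated otherwise, and name no exception for these mice. An antisense oligonucleotide (ASO) pairs with an mRNA and lowers it. MMAB ASO mice received an ASO against *Mmab*, which encodes the enzyme that makes adenosylcobalamin from vitamin B12, and CON ASO mice a control oligonucleotide, each at 50 mg/kg by intraperitoneal injection once a week for 6 weeks, with livers taken 48 h after the last injection. The sequencing asked which transcripts differ when *Mmab* is lowered. All 6 mice carried an oligonucleotide, none was left untreated, and an injected ASO is not limited to hepatocytes. In both groups the mice are numbered 1, 2 and 4, and values follow that order. Levels are CPM, counts scaled by the authors to the total of each library, and log2 fold changes are MMAB ASO over CON ASO on the log2(CPM + 0.0001) scale.

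*Mmab* itself was at 1.87, 2.69 and 1.80 CPM in MMAB ASO livers, against 6.31, 5.30 and 6.83 CPM in CON ASO livers, or -1.55 on the log2 scale (SE 0.21, limma adjusted p = 0.00225). Read totals are not given with the values, and steps between the lowest values put them at 44.7 to 55.4 M reads per library. Markers of other liver cells moved with the treatment. Of 10 sinusoidal endothelial markers 7 were higher in MMAB ASO livers and none lower, and their summed level was 94.3 to 108 CPM in MMAB ASO livers, against 41.0 to 64.0 CPM in CON ASO livers. Of 10 stellate cell markers 7 were higher, with sums of 146 to 170 CPM in MMAB ASO livers and 84.1 to 112 CPM in CON ASO livers. Kupffer cell and macrophage markers summed to 55.8 to 94.7 CPM in MMAB ASO livers, against 91.5, 25.8 and 24.6 CPM in CON ASO livers. Of 9 tested, 2 were higher at an adjusted p under 0.05, as were 1.87% of all tested genes. At an unadjusted p under 0.05 from limma, 6 were higher and 1 lower. The 1 lower was *Marco*, at 0.426, 0.134 and 0.380 CPM in MMAB ASO livers, against 15.7, 0.813 and 0.805 CPM in CON ASO livers. Of 9 hepatocyte markers none passed, also at an unadjusted p of 0.05, and 7 had negative log2 fold changes, at a median of -0.20. Among all tested genes 44.4% of log2 fold changes were negative, at a median of 0.03. Hepatocyte markers summed to 53606 to 69495 CPM in MMAB ASO livers and 62373 to 73487 CPM in CON ASO livers. These levels showed the cells of the labelled tissue in every library. Of the cholangiocyte markers, 1 of 3 tested was higher, and lymphocyte and granulocyte markers summed to 1.05 to 1.93 CPM in MMAB ASO livers and 1.46 to 2.01 CPM in CON ASO livers. No marker was at 0 in all 6 libraries. In whole liver RNA, fewer cells of a type and less RNA per cell cannot be told apart, and the part of these shifts in the values below was not tested.

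Per kilobase of exon, the levels of the carriers spanned several orders of magnitude. *Slc25a5*, the adenine nucleotide translocator that exchanges ATP for ADP in most tissues, and *Slc25a47*, a liver-enriched carrier tied to NAD, came first at 145 and 138 CPM per kilobase of exon over the 6 livers. After them came *Slc25a39*, needed for glutathione import, at 61.9, the citrate carrier *Slc25a1* at 35.0, the phosphate carrier *Slc25a3* at 22.4 and the dicarboxylate carrier *Slc25a10* at 21.9 CPM per kilobase. The first pair did not differ in rank beyond the spread of the livers, since their values per kilobase interleaved. *Slc25a4*, the translocator typical of heart and muscle, stood at 0.873 and the pyrimidine nucleotide carrier *Slc25a36* at 0.109 CPM per kilobase. Across all 6 livers the carriers together took 1504 to 1821 CPM in MMAB ASO livers and 1790 to 2009 CPM in CON ASO livers, so that the groups overlapped.

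**Figure D1:**
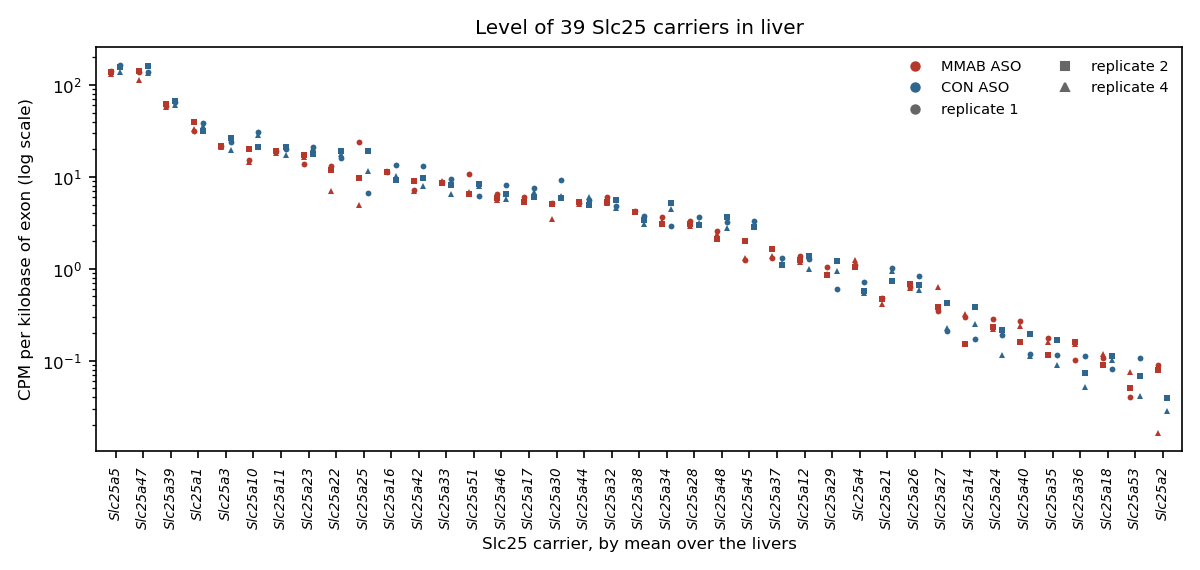
Level of 39 Slc25 carriers, in CPM per kilobase of exon on a log axis, with 1 point for each liver (red for MMAB ASO, blue for CON ASO, symbols for the replicate number) and genes ordered by their mean; values of 0 are not drawn. *Slc25a5* and *Slc25a47* lie highest, and *Slc25a2*, at 0 in CON ASO replicate 1, lies lowest.

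Of the 40 carriers, 34 had a mean of at least 1 CPM and were tested. With limma and a Benjamini-Hochberg adjusted p below 0.05, 4 of the 34 (11.8%) differed, *Slc25a10*, *Slc25a21* and *Slc25a45* lower and *Slc25a4* higher in MMAB ASO livers, where 4.09% of all 11565 tested genes did (2.22% lower and 1.87% higher). At the looser thresholds of the study (unadjusted p up to 0.05 with a fold of 1.5 or more), 8 carriers (23.5%) were counted, 5 lower (*Slc25a22* and *Slc25a30* beside the 3 above) and 3 higher (*Slc25a36* and *Slc25a40* beside *Slc25a4*), where 9.07% of all tested genes were, 3.55% lower and 5.52% higher. Without MMAB ASO replicate 4 that count was 4, and without CON ASO replicate 1 it was 5. An unadjusted p under 0.05, with no limit on the fold, was found for 12 of the 34 (35.3%) and for 17.8% of all tested genes. At the adjusted threshold and those of the study, shares of lower carriers were 8.82% and 14.7%, and of higher carriers 2.94% and 8.82%. Each share was above that of all genes in its direction, and with 34 genes each rests on few. The median log2 fold change of the 34 was -0.10, beside 0.03 for all tested genes, and 21 of the 34 values were below 0, as were 44.4% of all genes. With an equal sum of protein-coding genes in every library, 18 of the 34 were below 0. Their median was then -0.0066, beside 0.123 for all tested genes. The same 4 carriers passed under that scaling, under which 65.7% of all genes called were higher, against 45.7% on the deposited scale and 34.1% under median-ratio scaling.

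Calls depended on single livers. Without MMAB ASO replicate 4 or without CON ASO replicate 4, 0 carriers passed with limma, and 157 and 162 of all genes did. In each of these fits 8 carriers (23.5%) had an unadjusted p under 0.05, where 12.4% of all tested genes did without MMAB ASO replicate 4 and 16.3% without CON ASO replicate 4. Without CON ASO replicate 1, *Slc25a4* and *Slc25a45* passed. Without the other livers, 3 or 4 carriers passed, *Slc25a21* and *Slc25a45* among them each time.

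The promoters of the 4 carriers that passed are shown because they are the members whose mRNA differed between the groups. RefSeq sequence of GRCm38.p6 from 250 bases before to 50 after the annotated start was found for 30 of the 40 carriers. Capitals mark every match, on either strand, to the GC box GGGCGG or the CCAAT box CCAAT. The windows are chr19:5877572-5877871 on the plus strand for *Slc25a45*, chr12:57197423-57197722 on the minus strand for *Slc25a21*, chr11:120491587-120491886 on the plus strand for *Slc25a10* and chr8:46211013-46211312 on the minus strand for *Slc25a4*, each written 5′ to 3′ along the gene.
Slc25a45: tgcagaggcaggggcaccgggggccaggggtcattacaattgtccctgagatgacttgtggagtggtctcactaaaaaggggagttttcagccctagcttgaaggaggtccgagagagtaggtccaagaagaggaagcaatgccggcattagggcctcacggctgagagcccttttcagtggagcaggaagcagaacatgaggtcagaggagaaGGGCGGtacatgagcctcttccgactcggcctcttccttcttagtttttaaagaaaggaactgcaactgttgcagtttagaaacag
Slc25a21: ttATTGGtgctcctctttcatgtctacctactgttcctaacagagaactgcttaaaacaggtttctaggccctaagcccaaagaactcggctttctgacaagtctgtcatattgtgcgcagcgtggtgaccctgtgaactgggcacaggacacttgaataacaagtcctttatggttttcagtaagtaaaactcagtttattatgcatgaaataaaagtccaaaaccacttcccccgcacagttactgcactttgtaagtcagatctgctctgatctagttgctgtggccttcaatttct
Slc25a10: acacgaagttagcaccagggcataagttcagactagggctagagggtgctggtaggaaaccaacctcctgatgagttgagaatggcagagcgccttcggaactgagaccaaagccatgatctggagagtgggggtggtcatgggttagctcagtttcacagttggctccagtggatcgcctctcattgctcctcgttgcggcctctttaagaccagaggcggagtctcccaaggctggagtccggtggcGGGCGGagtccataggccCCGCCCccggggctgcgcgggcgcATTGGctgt
Slc25a4: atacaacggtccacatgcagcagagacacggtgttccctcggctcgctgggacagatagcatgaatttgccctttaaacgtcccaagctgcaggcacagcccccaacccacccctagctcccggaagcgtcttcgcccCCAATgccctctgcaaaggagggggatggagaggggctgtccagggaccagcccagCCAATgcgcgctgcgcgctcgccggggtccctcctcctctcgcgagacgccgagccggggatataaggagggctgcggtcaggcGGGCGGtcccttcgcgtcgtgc
Searches for the SREBP site TCACNCCAC, the NRF1 core GCGCATGC, the E-box CACGTG and the TATA box TATAAA, also on both strands, gave no match in these 4 windows. No 2 of the marked matches overlap. The start used for *Slc25a4* lies 222 bases from the start of that gene in the deposited table. The G and C content was 52.7% for *Slc25a45*, 43% for *Slc25a21*, 59.7% for *Slc25a10* and 65.7% for *Slc25a4*. For each carrier the 1 promoter nearest its start in the deposited table was searched. All 32851 promoters means every one listed, with no limit on gene type or expression in liver, so the shares below are of unlike sets. A GC box was in 26 of the 30 carrier promoters (86.7%) and in 35.7% of all 32851 promoters, and a CCAAT box in 16 of 30 (53.3%) and 37.4%. The SREBP site was in 1 carrier promoter, that of *Slc25a18*, and in 1.24% of all promoters, the NRF1 core in 0 of 30 and 2.71%, the E-box in 4 of 30 and 7.15%, and the TATA box in 1 of 30 and 13.6%. Of the windows shown, that of *Slc25a21* had no GC box. These are descriptions of letters in the window and name no factor at work in these livers.

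Among the carriers of di- and tricarboxylates and oxoacids, 2 of 4 were lower at an adjusted p under 0.05 and the other 2 did not pass. Of all tested genes 2.22% were lower, and 4 carriers are too few to describe the role. *Slc25a10* exchanges malate or succinate for phosphate, and lies on chromosome 11 from 120491840 to 120499187 of GRCm38, plus strand. It had 53.3, 69.9 and 50.1 CPM in MMAB ASO livers, against 107, 73.0 and 99.8 CPM in CON ASO livers. Every MMAB ASO liver was below every CON ASO liver, but MMAB ASO replicate 2 and CON ASO replicate 2 lay close together. The means were 57.8 ± 10.6 CPM in MMAB ASO livers and 93.4 ± 18.0 CPM in CON ASO livers (SD, n = 3 each), and the log2 fold change was -0.69 (SE 0.17, limma adjusted p = 0.0447). The call held only without MMAB ASO replicate 2 or CON ASO replicate 2 when livers were left out in turn, over an adjusted p of 0.00483 to 0.185, and it ended, among other settings, with no filter, a minimum mean of 5 CPM, quantile normalization or an untrended variance prior, at an adjusted p of up to 0.108. An antisense gene, *Gm11788*, overlaps its start by 555 bases and was at 0.0828 to 0.205 CPM in MMAB ASO livers and 0.156 to 0.241 CPM in CON ASO livers.

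*Slc25a21* takes 2-oxoadipate, a product of lysine and tryptophan breakdown, into the matrix in exchange for 2-oxoglutarate. It spans chromosome 12 from 56712634 to 57197472, minus strand, and had 2.34, 2.27 and 2.01 CPM in MMAB ASO livers, against 4.92, 3.55 and 4.62 CPM in CON ASO livers. Its highest MMAB ASO liver was well under its lowest CON ASO liver. The means were 2.21 ± 0.177 CPM in MMAB ASO livers and 4.36 ± 0.720 CPM in CON ASO livers (SD, n = 3 each), with a log2 fold change of -0.97 (SE 0.19, limma adjusted p = 0.0178). The call held in the 9 other alternatives that tested the gene and in 3 of the 6 fits without a liver, and ended without MMAB ASO replicate 4 (adjusted p = 0.0801), CON ASO replicate 1 (0.0520) or CON ASO replicate 4 (0.0831). Its end overlaps *Pax9*, on the opposite strand, by 189 bases, and *Pax9* was at 0.207 to 0.352 CPM in MMAB ASO livers and 0.303 to 0.695 CPM in CON ASO livers.

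The citrate carrier *Slc25a1*, which exports citrate for fatty acid and sterol synthesis, had 67.6, 86.4 and 71.6 CPM in MMAB ASO livers, against 82.6, 68.6 and 77.5 CPM in CON ASO livers. The groups overlapped throughout, and its log2 fold change was -0.02 with a 95% interval of -0.32 to 0.27. For *Slc25a11*, the 2-oxoglutarate and malate carrier of the malate-aspartate shuttle, the log2 fold change was -0.04 and the interval -0.31 to 0.23.

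**Figure D2:**
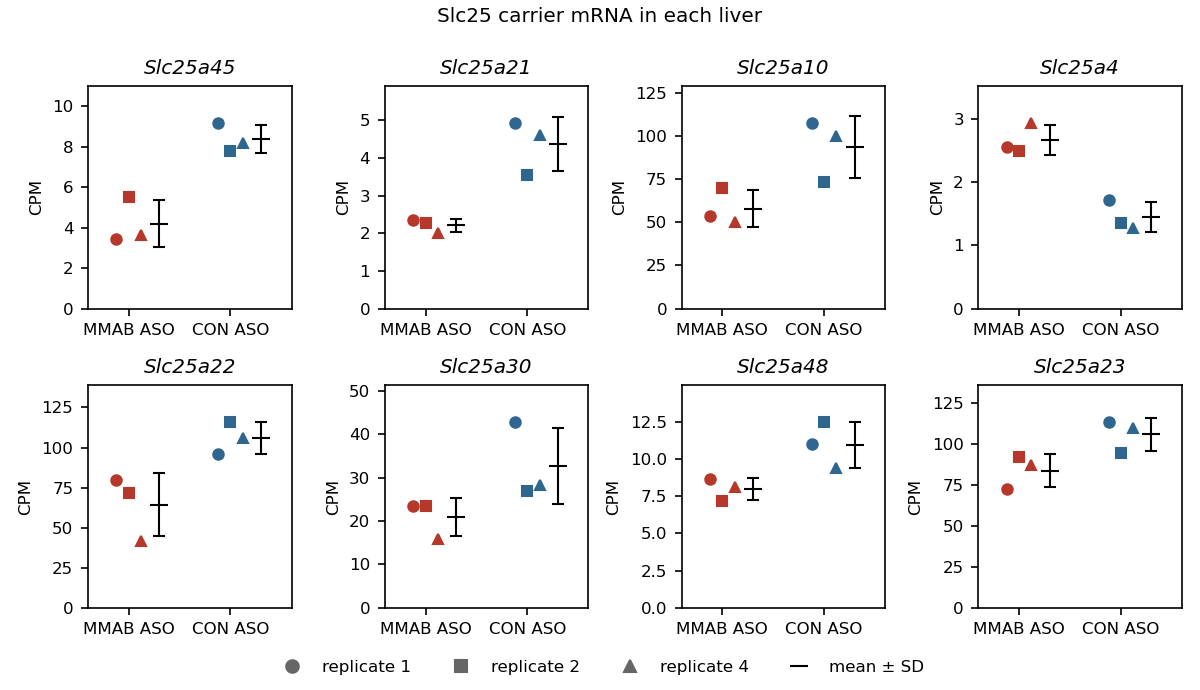
CPM of 8 Slc25 carriers in each liver, MMAB ASO left and CON ASO right, with symbols for the replicate number and bars for the mean and SD of 3 livers; each axis starts at 0. The 8 were taken from the 10 tested carriers whose groups do not overlap. Left out are *Slc25a17*, lower, and *Slc25a38*, higher in MMAB ASO livers. Of the 8, *Slc25a4* is the 1 that is higher in MMAB ASO livers. The 4 in the lower row did not pass an adjusted p of 0.05.

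*Slc25a45*, a carrier with no substrate named here, showed the lowest log2 fold change of the 34 tested carriers. It lies on chromosome 19 from 5877808 to 5885766, plus strand, and had 3.43, 5.52 and 3.66 CPM in MMAB ASO livers, against 9.16, 7.78 and 8.20 CPM in CON ASO livers. Again no MMAB ASO liver reached a CON ASO liver, and MMAB ASO replicate 2 came nearest. The means were 4.20 ± 1.14 CPM in MMAB ASO livers and 8.38 ± 0.711 CPM in CON ASO livers (SD, n = 3 each), and the log2 fold change was -1.03 (SE 0.19, limma adjusted p = 0.0132). It passed in all 10 other alternatives and in 4 of the 6 fits without a liver, with adjusted p-values of 0.0638 without MMAB ASO replicate 4 and 0.0641 without CON ASO replicate 4.

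Carriers of adenine nucleotides and phosphate supply the matrix with ADP and phosphate and release ATP. *Slc25a4* was the only 1 of the 5 tested in this group to pass. Of the 34 tested carriers it was the only 1 higher at an adjusted p under 0.05, beside 1.87% of all tested genes. It lies on chromosome 8 from 46206797 to 46211284, minus strand, and had 2.56, 2.49 and 2.93 CPM in MMAB ASO livers, against 1.71, 1.35 and 1.28 CPM in CON ASO livers. The lowest MMAB ASO liver was above the highest CON ASO liver. The means were 2.66 ± 0.236 CPM in MMAB ASO livers and 1.45 ± 0.231 CPM in CON ASO livers (SD, n = 3 each), and the log2 fold change was 0.89 (SE 0.22, limma adjusted p = 0.0446). Of the fits without a liver only that without CON ASO replicate 1 kept the call, the others giving adjusted p-values of 0.0820 to 0.195, and the call ended, among other settings, with no filter (0.0730) or quantile normalization (0.0563). Endothelial and stellate cell markers rose in the same livers, as given above, and their part in the level of *Slc25a4* was not tested.

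The main liver translocator, *Slc25a5*, had 234, 229 and 217 CPM in MMAB ASO livers, against 269, 256 and 228 CPM in CON ASO livers. Its groups overlapped, and its log2 fold change was -0.14 (95% interval -0.41 to 0.13). Reads of this gene may be split with its pseudogene *Slc25a5-ps*, which was at 0.575 to 0.852 CPM in MMAB ASO livers and 0.913 to 1.07 CPM in CON ASO livers. Per kilobase of exon, *Slc25a4* made up 0.760%, 0.756% and 0.934% of the sum of both translocators in MMAB ASO livers, against 0.443%, 0.370% and 0.390% in CON ASO livers. *Slc25a5* therefore made up nearly all of the pair in both groups.

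The phosphate carrier *Slc25a3* had 121, 119 and 118 CPM in MMAB ASO livers, against 133, 147 and 108 CPM in CON ASO livers. MMAB ASO livers lay close together inside the wider range of CON ASO livers, and the log2 fold change was -0.11 (interval -0.40 to 0.19). *Slc25a23* and *Slc25a25* are calcium-regulated exchangers of ATP-Mg for phosphate. The first had 72.3, 92.1 and 86.9 CPM in MMAB ASO livers, against 113, 94.3 and 109.9 CPM in CON ASO livers. Its groups did not overlap, but the log2 fold change of -0.34 (SE 0.13, limma adjusted p = 0.210) did not pass. *Slc25a25* had 188, 75.9 and 39.1 CPM in MMAB ASO livers, against 52.2, 151 and 90.9 CPM in CON ASO livers. It spread further between livers than any other tested carrier, by 4.82-fold from lowest to highest, with both extremes in MMAB ASO livers. Its log2 fold change was -0.12, with an interval of -1.14 to 0.90, and ran from -0.72 without MMAB ASO replicate 1 to 0.42 without MMAB ASO replicate 4 and 0.26 without CON ASO replicate 2, so that single livers set its sign.

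Of the 8 tested carriers of amino acids, choline and glutathione, none passed at an adjusted p under 0.05, and 4 had an unadjusted p under 0.05 from limma, *Slc25a22* and *Slc25a48* with negative and *Slc25a38* and *Slc25a40* with positive log2 fold changes, beside the 17.8% of all tested genes given above. *Slc25a22* brings glutamate into the matrix with a proton. It had 79.6, 71.8 and 42.0 CPM in MMAB ASO livers, against 95.8, 116 and 106 CPM in CON ASO livers. The CON ASO livers lay above all MMAB ASO livers, and MMAB ASO replicate 4 was lowest. With means of 64.4 ± 19.8 CPM in MMAB ASO livers and 106 ± 9.94 CPM in CON ASO livers (SD, n = 3 each), its log2 fold change was -0.76 (SE 0.20, limma adjusted p = 0.0596). It passed without MMAB ASO replicate 1 (adjusted p = 0.0228) and, among other settings, with library weights (0.0489), and its adjusted p ran up to 0.181 over all settings run.

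*Slc25a48*, which has been linked to choline import, had 8.65, 7.19 and 8.12 CPM in MMAB ASO livers, against 11.0, 12.4 and 9.36 CPM in CON ASO livers. The groups did not overlap, and the log2 fold change was -0.45 (SE 0.15, limma adjusted p = 0.141). *Slc25a38*, which imports glycine for heme synthesis, had 11.7, 11.4 and 11.4 CPM in MMAB ASO livers, against 10.3, 9.34 and 8.39 CPM in CON ASO livers. Its MMAB ASO values lay within a narrow band above all CON ASO values, at a log2 fold change of 0.30 (SE 0.14, limma adjusted p = 0.274). *Slc25a40*, a close relative of *Slc25a39*, was at a mean of 1.89 ± 0.481 CPM in MMAB ASO livers and 1.18 ± 0.387 CPM in CON ASO livers (SD, n = 3 each), and its groups overlapped.

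*Slc25a39* had 162, 169.6 and 158 CPM in MMAB ASO livers, against 179.9, 186 and 169 CPM in CON ASO livers. MMAB ASO replicate 2 lay just above CON ASO replicate 4 and the other MMAB ASO livers below all CON ASO livers, and the log2 fold change was -0.13 (interval -0.38 to 0.13). The aspartate and glutamate carrier *Slc25a12* was at 0.07, *Slc25a44*, a carrier of branched-chain amino acids, at -0.10, and *Slc25a29*, a carrier of basic amino acids, at 0.05 on the log2 scale, all with overlapping groups. *Slc25a29* and *Slc25a47* lie head to head on chromosome 12 with 162 bases between them in the table's annotation. Their mean levels per kilobase were 0.923 and 138 CPM.

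Cofactor, nucleotide and NAD carriers gave no call among 10 tested, and 2 had an unadjusted p under 0.05, *Slc25a42* and *Slc25a36*, a share near the 17.8% of all tested genes. *Slc25a47* had 411, 423 and 335 CPM in MMAB ASO livers, against 417, 484 and 401 CPM in CON ASO livers. MMAB ASO replicate 4 was the lowest of the 6 livers and the groups overlapped, at a log2 fold change of -0.16 (interval -0.47 to 0.16). *Slc25a17*, which carries coenzyme A and other cofactors in the peroxisomal membrane, had 17.1, 15.0 and 17.0 CPM in MMAB ASO livers, against 21.6, 17.1 and 19.4 CPM in CON ASO livers. The highest MMAB ASO value and the lowest CON ASO value nearly touched, and the log2 fold change was -0.24 (SE 0.14, limma adjusted p = 0.392). *Slc25a42*, which brings coenzyme A into the matrix, averaged 46.4 ± 6.71 CPM in MMAB ASO livers and 62.0 ± 16.2 CPM in CON ASO livers (SD, n = 3 each), with overlap, and *Slc25a36* averaged 1.33 ± 0.303 CPM in MMAB ASO livers and 0.762 ± 0.298 CPM in CON ASO livers (SD, n = 3 each), also with overlap. For the mitochondrial NAD carrier *Slc25a51* the log2 fold change was 0.08, for the coenzyme A related carrier *Slc25a16* 0.07, for the S-adenosylmethionine carrier *Slc25a26* -0.09, for the folate carrier *Slc25a32* 0.16 and for the pyrimidine nucleotide carrier *Slc25a33* 0.15. None of these 5 had an unadjusted p under 0.05.

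Both mitoferrins, which bring iron into the matrix for heme and iron-sulfur clusters, were measured and neither passed, also at an unadjusted p of 0.05. *Slc25a37* averaged 8.68 ± 1.15 CPM in MMAB ASO livers and 7.16 ± 0.613 CPM in CON ASO livers (SD, n = 3 each). *Slc25a28* averaged 11.6 ± 0.733 CPM in MMAB ASO livers and 12.3 ± 1.29 CPM in CON ASO livers (SD, n = 3 each). In both the groups overlapped.

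Carriers related to uncoupling proteins include *Slc25a30*, which had 23.5, 23.4 and 15.9 CPM in MMAB ASO livers, against 42.7, 27.0 and 28.3 CPM in CON ASO livers. All MMAB ASO livers were below the CON ASO livers, and CON ASO replicate 1 was highest. Its log2 fold change was -0.63 (SE 0.20, limma adjusted p = 0.108), and it passed only without CON ASO replicate 2 (-0.76, adjusted p = 0.0379). *Slc25a27* averaged 1.79 ± 0.606 CPM in MMAB ASO livers and 1.13 ± 0.465 CPM in CON ASO livers (SD, n = 3 each) and its groups overlapped. *Slc25a46*, which sits in the outer membrane and shapes mitochondria, was at a log2 fold change of -0.15, and *Slc25a34* at -0.27.

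In all, 10 of the 34 tested carriers (29.4%) had groups that did not overlap, 8 of them lower and 2 higher in MMAB ASO livers. Among all tested genes this was so for 22.7%, with 8.91% lower and 13.8% higher. An exact two-sided permutation test of each such carrier gives p = 0.1, the smallest that 3 livers against 3 allow.

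**Figure D3:**
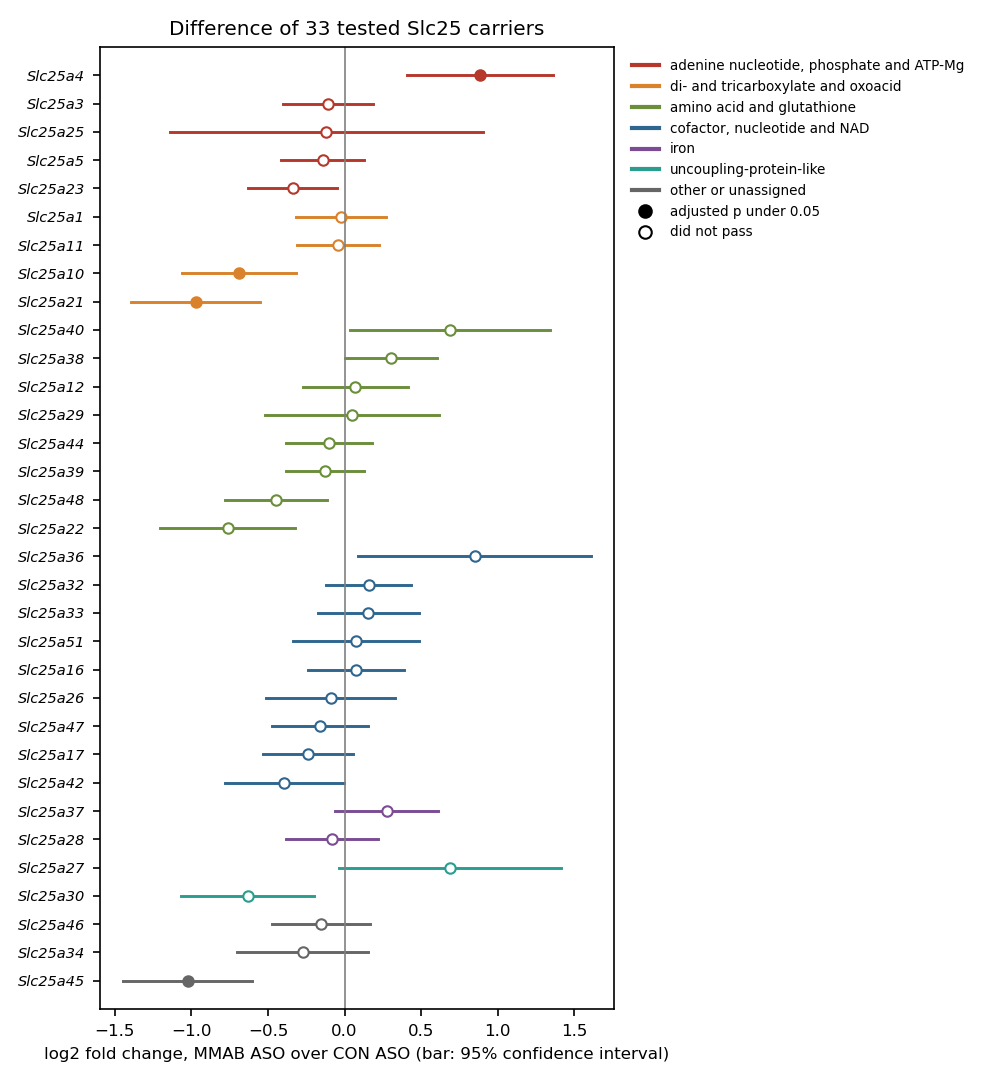
Log2 fold change of 33 tested Slc25 carriers, MMAB ASO over CON ASO, with its 95% confidence interval from limma, grouped and coloured by role; filled points passed an adjusted p of 0.05. *Slc25a45*, *Slc25a21* and *Slc25a10* lie below 0 and *Slc25a4* above, and the interval of *Slc25a25* is the widest.

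The remaining 6 carriers were under the filter and were not tested. *Slc25a24*, another ATP-Mg exchanger, had 0.974, 0.801 and 0.760 CPM in MMAB ASO livers, against 0.658, 0.741 and 0.393 CPM in CON ASO livers, which did not overlap. *Slc25a2*, an ornithine carrier, was at 0.122, 0.108 and 0.0224 CPM in MMAB ASO livers, against 0.0, 0.0542 and 0.0393 CPM in CON ASO livers. *Slc25a14* averaged 0.614 ± 0.220 CPM in MMAB ASO livers and 0.642 ± 0.255 CPM in CON ASO livers (SD, n = 3 each), *Slc25a18*, the second glutamate carrier, 0.200 ± 0.0253 CPM in MMAB ASO livers and 0.189 ± 0.0323 CPM in CON ASO livers (SD, n = 3 each), *Slc25a35* 0.554 ± 0.117 CPM in MMAB ASO livers and 0.459 ± 0.150 CPM in CON ASO livers (SD, n = 3 each) and *Slc25a53* 0.444 ± 0.146 CPM in MMAB ASO livers and 0.580 ± 0.269 CPM in CON ASO livers (SD, n = 3 each), each with overlapping groups. At this depth 1 read is worth 0.0181 to 0.0224 CPM, so that *Slc25a2* rests on few reads in any liver. Strand use in the counting is not given in the sources used here, and 17 of the 40 carriers overlap another annotated gene on the opposite strand.

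Genes that work with the carriers were read against the same shares of all tested genes, 4.09% at an adjusted p under 0.05 and 17.8% at an unadjusted p under 0.05. Of 10 genes that import carrier proteins through the outer and inner membranes, none passed from limma and 1 had an unadjusted p under 0.05, at a median log2 fold change of 0.04. Of 13 tested genes for other transport across the inner membrane, such as the pyruvate carrier and the calcium uniporter, 1 fell, 3 had an unadjusted p under 0.05, and the median was -0.12. The 1 that fell was *Micu2*, which gates the calcium uniporter, at 11.2, 12.4 and 11.8 CPM in MMAB ASO livers, against 19.3, 16.5 and 20.4 CPM in CON ASO livers. Its groups lay apart, at -0.66 on the log2 scale (SE 0.13, limma adjusted p = 0.0201). Of the 3 outer membrane pore genes and the 3 tested relatives with other symbols (uncoupling protein *Ucp2*, *Mtch1* and *Mtch2*), none passed or had an unadjusted p under 0.05, at medians of -0.04 and -0.13. Of 12 partner enzymes, such as those of the malate-aspartate shuttle and the urea cycle, none passed, 1 had an unadjusted p under 0.05, and 11 had negative log2 fold changes, at a median of -0.18. Of all tested genes 44.4% had negative log2 fold changes, and of the 9 hepatocyte markers 7 did, at a median of -0.20.

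**Figure D4:**
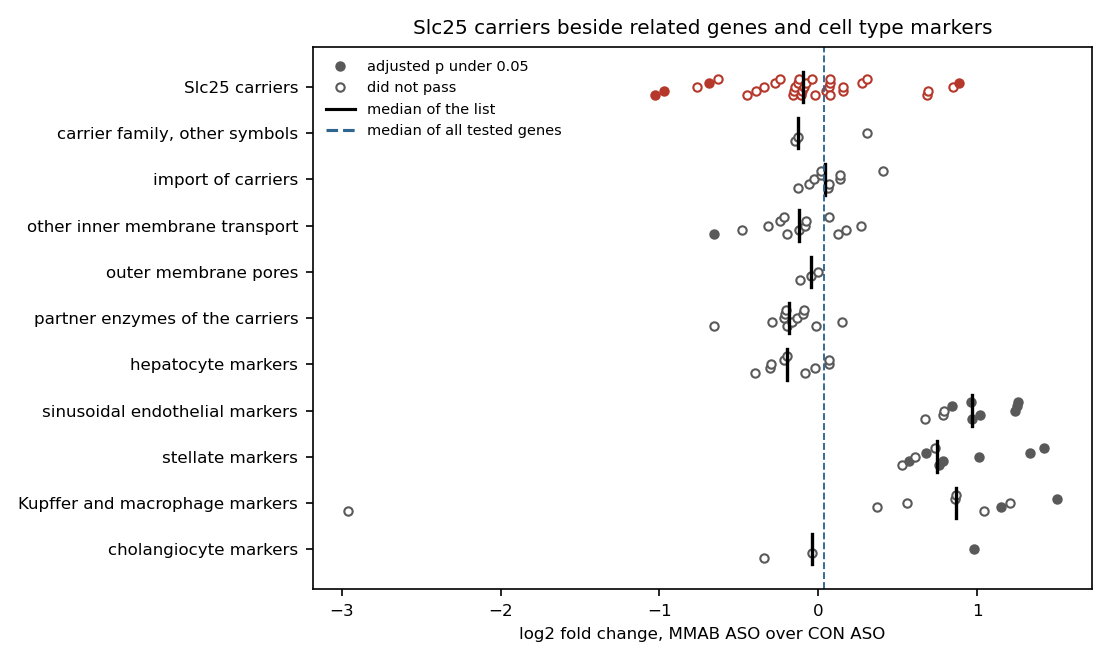
Log2 fold change of the tested genes of each list, MMAB ASO over CON ASO, 1 point for each gene, filled where the adjusted p was under 0.05, with the median of each list as a bar and that of all tested genes as a dashed line. The carriers spread on both sides of 0 around a median of -0.10, and the hepatocyte list has a median of -0.20. The endothelial, stellate and Kupffer cell and macrophage lists have medians of 0.97, 0.75 and 0.87.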

How the data were processed

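Liver RNA of 3 MMAB ASO and 3 CON ASO mice was depleted of ribosomal RNA and sequenced. Per the study's methods and labels, the authors aligned reads with STAR in PartekFlow, estimated abundance with Partek E/M, and deposited log2 of counts scaled to each library's total (CPM) with 0.0001 added. Columns were matched to samples by name. The column names end in a numbered suffix that the sources do not explain, and MMAB ASO replicate 1 and CON ASO replicate 1 share theirs. Which libraries were sequenced together is not given in the sources used here. Of values up to 20 reads, 58.5% to 59.9% were whole multiples of a read to within 0.01, so no count test was run.

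Genes averaging 1 CPM or more over the libraries (11565) were fitted on the deposited values with limma 3.58.1 in R 4.3.3 (trended variance prior, no covariate, Benjamini-Hochberg adjustment, threshold 0.05), which stands in for the GSA test of the study and was tested on simulated data. Positions are on GRCm38, with the table's end coordinate lowered by 1 base, and exon lengths are from GENCODE M21.

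The values of 1 carrier that enters the counts are not reported here. The carriers, lists and alternatives were chosen with earlier results of these data known. Values by liver are given for carriers past the threshold, for those without overlap at a mean of at least 5 CPM, and for the 6 with the highest mean CPM. Those given by liver beyond this, *Slc25a1*, *Slc25a2* and *Slc25a24*, were chosen after their values were seen. Python 3.11.15 with pandas 2.3.3 and matplotlib 3.10.9 was used for summaries and plots.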

Additional observations from a re-analysis of the deposited data

How the results depend on the processing

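On the deposited scale 4 carriers passed (3 lower, 1 higher). The count was 2 of 40 tested (2 lower, 0 higher) without a filter, where 1.2% of all tested genes passed. It was 2 of 34 (2 lower, 0 higher) under quantile normalization, where 3.67% of all tested genes passed. At a mean of at least 5 CPM it was 1 of 26 (1 lower, 0 higher), a share near the 3.57% of all genes tested there. With a replicate block it was 3 of 34 (3 lower, 0 higher), beside 3.72% of all tested genes. Of these 3, *Slc25a21* and *Slc25a45* were among the 4. Leaving out each liver gave 0 to 4 carriers, 0 to 4 lower and 0 to 1 higher. The 473 genes called among all tested genes (4.09% of 11565) were 255 of 21297 (1.2%) without a filter. At a mean of at least 5 CPM they were 268 of 7502 (3.57%). With the 11565 genes they were 768 (6.64%) with array weights and 157 to 536 (1.36% to 4.63%) with a liver left out. The 8 carriers at the study's thresholds were 5 with a pseudocount of 1, 4 at a mean of at least 5 CPM and 4 to 9 with a liver left out. The median log2 fold change of the carriers, -0.10, was -0.0066 under protein-coding sum scaling and ran from -0.12 to -0.05 with a liver left out. Under protein-coding sum scaling the median of all tested genes rose as well, from 0.034 to 0.123. No scaling moved it by as much as 0.1 on the log2 scale. The cause of these shifts was not tested.

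Same-numbered livers did not deviate together (correlations of -0.02, 0.05 and -0.01 for numbers 1, 2 and 4), and not every liver correlated best with its own number, so the numbers were not taken as pairs. With the block, *Slc25a4* (adjusted p = 0.0766 from limma) and *Slc25a10* (0.0726) did not pass, *Slc25a22* did (0.0497), and 430 genes were called.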
